A study of Mus musculus with 6 samples.

Results

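The anoctamins, also called TMEM16 proteins, are a family of membrane proteins activated or regulated by calcium. Of the 20856 genes with values in the deposited RNA-seq table (RPKM, reads scaled to transcript length and to the total of reads counted), 8 are examined here: *Ano1*, *Ano3*, *Ano4*, *Ano5*, *Ano6*, *Ano8*, *Ano9* and *Ano10*. The family was chosen by the values of *Ano3* in the same comparison that is described below, since its reads came almost wholly from 1 of the genotypes. The values of *Ano3* are therefore given as a description without a test, and the other 7 genes were taken by family name. *Ano2* had 1 read in all 6 libraries together and is no member, and *Ano7* was not analysed here.

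Some anoctamins are chloride channels that open when cytosolic calcium rises, and others are scramblases, which let phospholipids cross between the leaflets of a membrane. *Ano1* (TMEM16A) is the best known channel of the family and carries secretory chloride current in epithelia, including the bile duct epithelium of the liver. *Ano6* (TMEM16F) is a scramblase that exposes phosphatidylserine on the cell surface, as in activated platelets. *Ano3* is known mainly from neurons, where it is a partner of a sodium-activated potassium channel, and *Ano5* from skeletal muscle and bone.

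The libraries came from 6 lines grown out of liver tumors of C57BL/6 mice, namely 3 *Myc*; sg*Trp53* and 3 *Myc*; sg*Kmt2c* lines. In both genotypes the tumors were raised in vivo by hydrodynamic injection of a *Myc* transposon together with the pX330 plasmid, which expresses Cas9 and a guide RNA against *Trp53* (p53) or against *Kmt2c* (Mll3). The transposon integrates, so that every line carries *Myc*, whereas Cas9 and the guide were expressed transiently. The lines were cultured on collagen until no fibroblasts were visible, and received no treatment before RNA extraction. The mice were females bought at 8 to 10 weeks of age. Lines 2 and 3 of the *Myc*; sg*Kmt2c* genotype are labelled 2A and 2T1, and per the study's list of resources no mouse gave more than 1 line of a genotype. No line with both targeted genes intact was analysed here, so that a difference between the genotypes cannot be assigned to the loss of either gene, and the effects of the guides cannot be told apart. The lines are tumor-derived populations and not isogenic, and p-values measure the spread between such lines.

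Recovered reads ranged from 5312182 to 6878625 in the *Myc*; sg*Trp53* libraries and from 3680068 to 4704539 in the *Myc*; sg*Kmt2c* libraries, which limits the precision of low genes more in the latter. *Trp53* stood at 18.1 ± 1.17 RPKM among the *Myc*; sg*Trp53* lines and at 112 ± 17.4 RPKM among the *Myc*; sg*Kmt2c* lines (SD, n = 3 each), without overlap. *Kmt2c* stood at 20.6 ± 3.17 and 18.1 ± 7.86 RPKM (SD, n = 3 each), with overlap, and a transcript level does not read an indel. Of the hepatocyte markers, *Alb* (albumin) stood between 0.644 and 4.36 RPKM in all 6 lines. Line 1 of *Myc*; sg*Kmt2c* stood apart, with 1186 RPKM of the hepatocyte transcription factor *Hnf4a* against 0.629 to 169.9 RPKM in the other 5 lines.

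For the genes that the results turn on, the 250 bases before the transcription start are shown, as RefSeq lists it (GRCm38.p6, the build of the deposited coordinates). RefSeq promoter windows were found for 6 of the 8 members, and *Ano8* and *Ano9* have none there. Capitals mark an E-box (CACGTG), the motif bound by Myc and its partner Max, and GC boxes (GGGCGG or its reverse complement), the motif of Sp1-type factors. The motifs were chosen with the sequences in view and did not overlap each other in these windows. *Ano3*, whose gene spans chr2:110655201-110950923, is on the minus strand and has both of its listed starts shown. The windows of *Ano3* lie at chr2:110950245-110950494 and chr2:110840060-110840309, that of *Ano1* at chr7:144738574-144738823 (minus strand), and that of *Ano6* at chr15:95790593-95790842 (plus strand). That of *Ano10* lies at chr9:122294424-122294673 (minus strand). The deposited span of *Ano1* is chr7:144588549-144751974, so that its RefSeq start and window lie inside the deposited gene. The windows of *Ano3* and *Ano4* also lie inside the deposited spans of their genes.
*Ano3*, upstream start: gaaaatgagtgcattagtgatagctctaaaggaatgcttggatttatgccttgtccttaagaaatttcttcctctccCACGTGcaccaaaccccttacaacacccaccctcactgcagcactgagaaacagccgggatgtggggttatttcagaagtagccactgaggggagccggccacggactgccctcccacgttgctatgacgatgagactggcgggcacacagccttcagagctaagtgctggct
*Ano3*, downstream start: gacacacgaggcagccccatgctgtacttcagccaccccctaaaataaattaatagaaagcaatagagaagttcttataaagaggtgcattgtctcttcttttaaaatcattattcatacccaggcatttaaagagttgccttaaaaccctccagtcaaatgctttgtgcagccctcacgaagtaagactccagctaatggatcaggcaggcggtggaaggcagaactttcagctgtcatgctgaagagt
*Ano1*: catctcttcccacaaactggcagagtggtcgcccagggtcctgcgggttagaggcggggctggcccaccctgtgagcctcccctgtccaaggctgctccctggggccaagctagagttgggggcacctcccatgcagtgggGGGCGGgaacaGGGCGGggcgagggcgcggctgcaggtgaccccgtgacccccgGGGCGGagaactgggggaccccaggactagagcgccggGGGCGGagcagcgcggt
*Ano6*: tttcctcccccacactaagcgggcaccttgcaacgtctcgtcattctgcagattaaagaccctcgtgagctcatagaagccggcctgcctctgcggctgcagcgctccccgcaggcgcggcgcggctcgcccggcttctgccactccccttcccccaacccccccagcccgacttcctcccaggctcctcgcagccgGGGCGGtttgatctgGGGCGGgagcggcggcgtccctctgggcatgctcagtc
*Ano10*: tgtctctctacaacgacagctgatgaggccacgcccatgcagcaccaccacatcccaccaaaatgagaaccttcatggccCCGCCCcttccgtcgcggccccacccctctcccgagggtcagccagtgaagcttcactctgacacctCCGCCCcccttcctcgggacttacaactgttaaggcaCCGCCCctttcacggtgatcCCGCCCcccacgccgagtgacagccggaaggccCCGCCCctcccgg

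The windows of *Ano1*, *Ano6* and *Ano10*, all read in every line, were rich in G and C, with 72%, 68.4% and 65.2% of their bases. They held 4, 2 and 5 GC boxes and 16, 22 and 17 CpG dinucleotides. The upstream window of *Ano3* had 52.4% G and C with 7 CpG dinucleotides, and the downstream window 43.6% with 3. The window of *Ano5*, which was not read in any line, was also rich in G and C, at 61.6% with 13 CpG dinucleotides. That of *Ano4* had 53.2% with 2. Across all 32851 windows of the same length the median was 52.4% with 6 CpG dinucleotides. No GC box was found in the windows of *Ano3*, *Ano4* or *Ano5*, and 32.7% of all windows hold one. The upstream window of *Ano3* held 1 E-box, which begins 173 bases before the start, the only E-box among the 7 member windows, and 6.02% of all windows hold one. The p53 half-site, sought with its usual ambiguous letters, was found in the window of *Ano6* alone among the members and in 7.13% of all windows. A match describes letters in a window and is neither a binding site nor a cause.

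*Ano3* was read almost wholly from the *Myc*; sg*Kmt2c* lines. Its 3 *Myc*; sg*Trp53* libraries had 0, 0 and 1 reads, or 0, 0 and 0.0216 RPKM. The *Myc*; sg*Kmt2c* libraries had 73, 66 and 36 reads, or 2.31, 2.67 and 1.26 RPKM. The genotypes did not overlap, and line 3 was the lowest of the *Myc*; sg*Kmt2c* lines. Pooled over libraries, 175 of 12652687 reads against 1 of 18279487 gave a ratio of 253. Its size rests on that 1 read, and the spread between lines does not enter it. On log2(RPKM + 1) the difference between the means was 1.58, a value that depends on the added 1, since 1 of the groups is near 0. With a pseudocount of 0.1 it was 4.29. Since 1 read was worth between 0.0216 and 0.0405 RPKM for this transcript of 6705 bases, the *Myc*; sg*Trp53* lines lie at the limit of detection.

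Even in the *Myc*; sg*Kmt2c* lines *Ano3* was a low transcript. It passed the filter of 1 RPKM in exactly 3 libraries, the fewest that the filter admits, and did so only through the group in which it was high. The genes around it were near the limit of detection in both genotypes. *Muc15*, a mucin gene that lies within *Ano3*, had 1 read, in line 1 of *Myc*; sg*Kmt2c*. On one side, *Fibin* and *Bbox1* had 7 reads and 1 read in all 6 libraries, and on the other *Gm13961* and *Olfr1309* had 14 and 0. Strand use in the counting is not stated, so that reads of *Ano3* and *Muc15* cannot be told apart where the genes overlap.

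**Figure D1:**
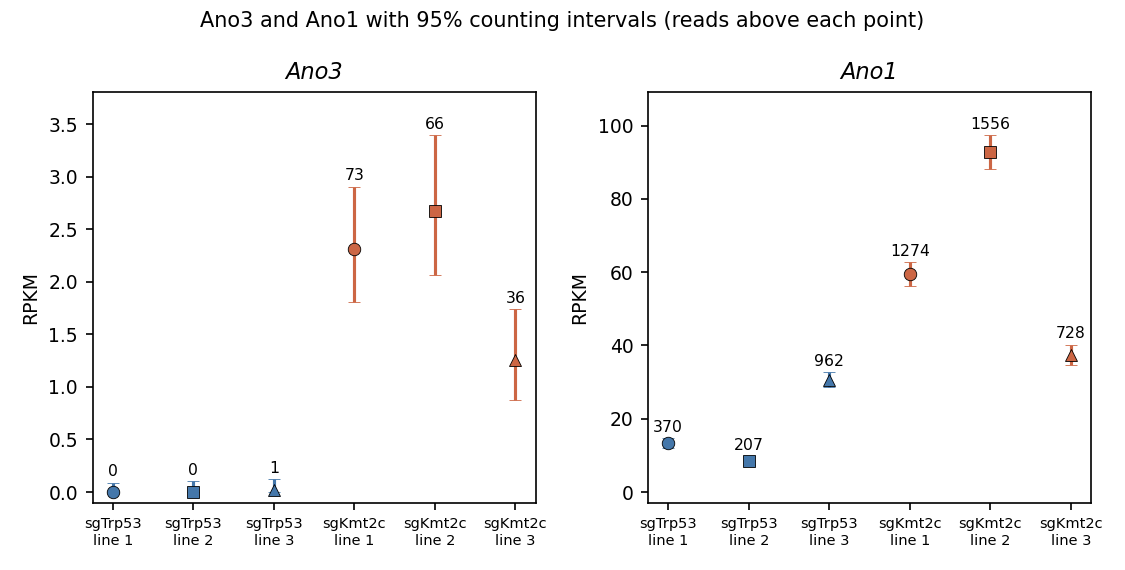
RPKM of *Ano3* (left) and *Ano1* (right) in each of the 6 lines, with bars for the exact 95% counting interval and the recovered reads above each point. *Ano3* lies at 0 to 1 read in the sgTrp53 lines and at 36 to 73 reads in the sgKmt2c lines, while *Ano1* was read in all lines from 207 to 1556 times.

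*Ano1*, the calcium-activated chloride channel, was also higher in every *Myc*; sg*Kmt2c* line than in any *Myc*; sg*Trp53* line, but it was present in both genotypes and varied widely within each. It stood at 13.3, 8.55 and 30.7 RPKM among the *Myc*; sg*Trp53* lines and at 59.4, 92.7 and 37.4 RPKM among the *Myc*; sg*Kmt2c* lines. Line 3 of *Myc*; sg*Trp53* and line 3 of *Myc*; sg*Kmt2c* nearly met. The means were 17.5 ± 11.6 and 63.2 ± 27.8 RPKM (SD, n = 3 each), a ratio of 3.61. Its log2 fold change came to 1.88 (standard error 0.514, 95% interval 0.65 to 3.11), with an unadjusted p of 0.00881 and an adjusted p of 0.420 in limma, so the difference did not pass the threshold of 0.05 over all genes tested. The exact two-sided permutation test over 3 against 3 lines gave p = 0.1, the smallest it can give. From the lowest line to the highest, *Ano1* ranged 10.8-fold. The SD of its log2 level was 0.77 within genotypes, larger than that of 84.1% of all genes tested, and over the 6 lines, which takes in the difference between genotypes, larger than that of 92.9%.

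*Ano6*, the surface scramblase, overlapped between genotypes. It stood at 28.8, 20.9 and 31.7 RPKM among the *Myc*; sg*Trp53* lines and at 53.4, 28.4 and 31.1 RPKM among the *Myc*; sg*Kmt2c* lines. Line 1 of *Myc*; sg*Kmt2c* was high, and the other 2 lay within the range of the *Myc*; sg*Trp53* lines. Its log2 fold change came to 0.42 (standard error 0.301, 95% interval -0.30 to 1.14, adjusted p = 0.712 from limma), and 0.15 without that line. The gene spans chr15:95790843-95975464, and of the genes that overlap it *Gm17546* had 0 reads and *A130051J06Rik* 45 reads in all.

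*Ano10* (TMEM16K), a scramblase of the endoplasmic reticulum whose human counterpart is mutated in a recessive ataxia, also had its highest value in line 1 of *Myc*; sg*Kmt2c*. It stood at 10.7, 9.55 and 12.9 RPKM among the *Myc*; sg*Trp53* lines and at 29.3, 16.8 and 12.1 RPKM among the *Myc*; sg*Kmt2c* lines. Line 3 of *Myc*; sg*Kmt2c* lay below line 3 of *Myc*; sg*Trp53*, so the genotypes overlapped. Its log2 fold change came to 0.68 (standard error 0.341, 95% interval -0.13 to 1.5, adjusted p = 0.628 from limma). It was 0.35 without line 1 of *Myc*; sg*Kmt2c*.

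*Ano8* (TMEM16H), which tethers the endoplasmic reticulum to the plasma membrane, ranged 1.86-fold from its lowest to its highest line, the least of the 4 members read in every line. It stood at 6.77, 11.9 and 7.73 RPKM among the *Myc*; sg*Trp53* lines and at 12.6, 10.9 and 9.85 RPKM among the *Myc*; sg*Kmt2c* lines. Line 2 of *Myc*; sg*Trp53* lay among the *Myc*; sg*Kmt2c* lines. Its log2 fold change came to 0.34 (standard error 0.267, 95% interval -0.30 to 0.98, adjusted p = 0.727 from limma). Its end overlaps *Dda1*, a subunit of a ubiquitin ligase complex, at 30.9 ± 2.15 and 35.5 ± 5.11 RPKM (SD, n = 3 each), and reads in the overlap cannot be told apart.

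*Ano4*, *Ano5* and *Ano9* were not detectable or nearly so at this depth. *Ano4* had 3 reads in line 1 of *Myc*; sg*Trp53* and 1 read each in lines 2 and 3 of *Myc*; sg*Kmt2c*. *Ano5* and *Ano9*, a member known from epithelia of the digestive tract, had 0 reads in every library. A count of 0 is taken to allow up to 3 reads, a one-sided limit of about 95% for counting error alone. That is 0.0559 to 0.105 RPKM for *Ano5* and 0.145 to 0.270 RPKM for *Ano9*, and the exact two-sided 95% intervals reach somewhat higher, to 0.129 and 0.332 RPKM at most.

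**Figure D2:**
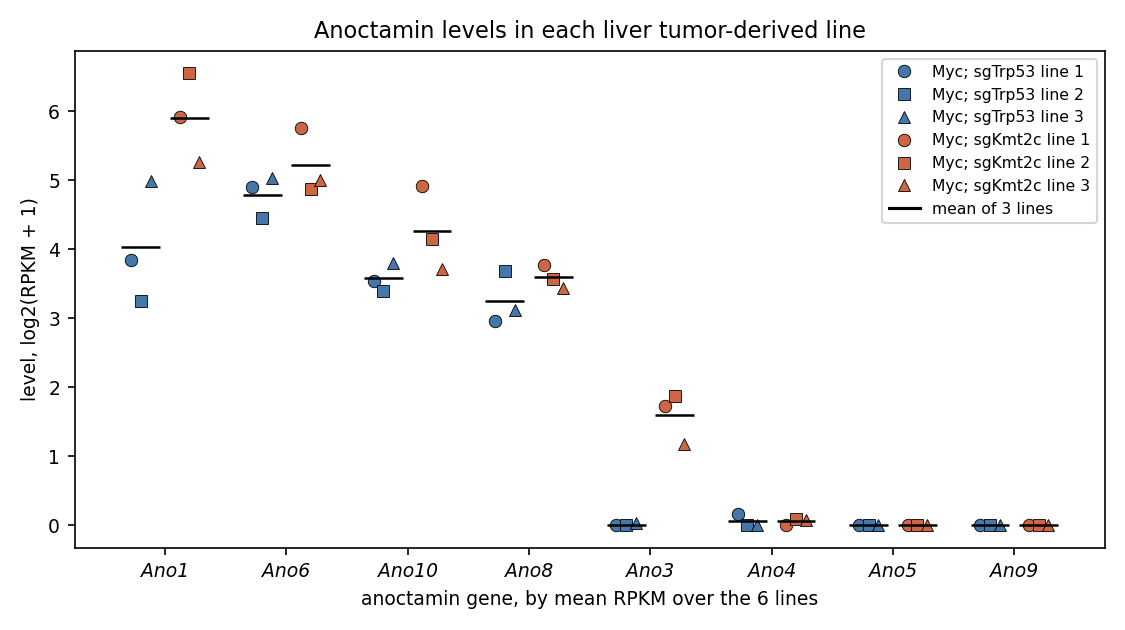
Level of each anoctamin as log2(RPKM + 1) in the 6 lines, ordered by mean RPKM, with a symbol per line, a color per genotype and a bar for the mean of 3 lines. In *Ano1* and *Ano3* the genotypes do not overlap, and in *Ano6*, *Ano10* and *Ano8* they do.

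Taking the 4 members other than *Ano3* that could be fitted, 0 passed an adjusted p of 0.05 in limma, against 0.129% of the 11617 genes tested (15 genes, 6 higher and 9 lower in the *Myc*; sg*Kmt2c* lines). That count of 15 was 0 when any single line other than line 1 of *Myc*; sg*Kmt2c* was left out, and 8 without that line. An unadjusted p under 0.05 was reached by 1 of the 4, *Ano1*, against 8.58% of all genes, and fits of the recovered reads with voom gave the same counts of 0 and 1. The lines did not overlap and were higher in *Myc*; sg*Kmt2c* for 1 of the 4, against 5.72% of all genes, and were lower for 0 of the 4, against 10.4%. All 4 log2 fold changes were positive, with a median of 0.55 beside -0.09 for all genes tested, of which 42.0% were positive. With 4 genes this describes the members and is no test of the family. In bulk RNA, a difference in level cannot tell more RNA per cell from more cells of a kind.

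**Figure D3:**
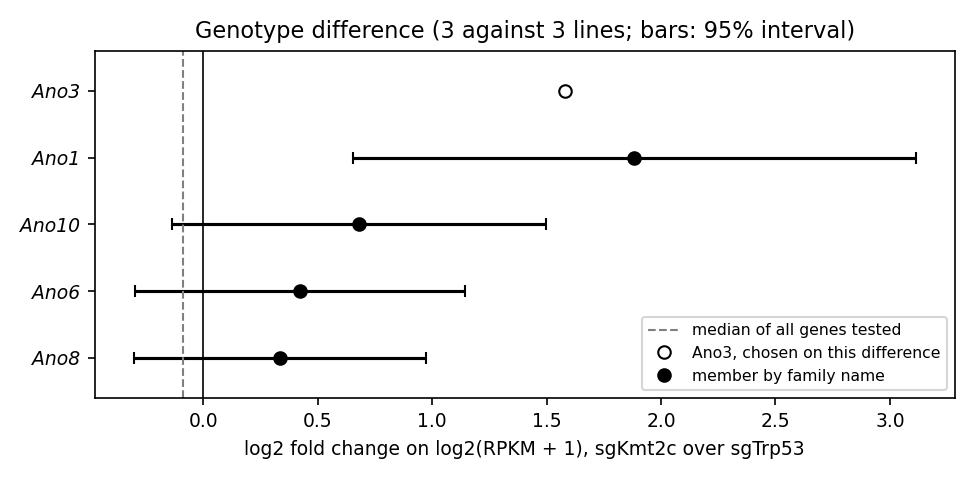
Log2 fold change (sgKmt2c over sgTrp53, on log2(RPKM + 1)) for the 5 anoctamins that passed the filter, with 95% intervals for 4 of them. The open circle is *Ano3*, on whose difference the family was chosen, shown without an interval. Of the other 4 intervals only that of *Ano1* lies wholly above 0, and the dashed line at -0.09 is the median of all genes tested.

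Because RPKM is per length, the members can be ranked. Over all 6 lines the order by mean RPKM was *Ano1* (40.3), *Ano6* (32.4), *Ano10* (15.2), *Ano8* (9.96), *Ano3* (1.04) and *Ano4* (0.0404), with *Ano5* and *Ano9* at 0. *Ano1* exceeded *Ano6* in 3 of 6 lines, and these neighbors did not differ beyond their spread (exact two-sided sign-flip test, p = 0.969). *Ano6* exceeded *Ano10* in 6 of 6 lines with an exact sign-flip p of 0.0313, the smallest possible, and 0.109 after adjustment over the 7 neighboring pairs. *Ano10* exceeded *Ano8* in 5 of 6 lines (exact sign-flip test, p = 0.0938). None of the pairs that leave out *Ano3* passed after adjustment, and none could have. Members at or near 0 gave tied lines, which kept their pairs from the smallest p, and too few other pairs remained. The adjusted values thus carry no information on the order. *Ano8* exceeded *Ano3* in 6 of 6 lines, given as a description since the values of *Ano3* chose the family. By mean RPKM, *Ano6* was highest among the *Myc*; sg*Trp53* lines and *Ano1* among the *Myc*; sg*Kmt2c* lines. In line 3 of *Myc*; sg*Trp53*, *Ano1* and *Ano6* nearly met.

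The ratio of *Ano1* to *Ano6* RPKM was 0.463, 0.410 and 0.968 among the *Myc*; sg*Trp53* lines and 1.11, 3.26 and 1.2 in the *Myc*; sg*Kmt2c* lines. Thus the scramblase had the higher RPKM in the *Myc*; sg*Trp53* lines and the chloride channel in the *Myc*; sg*Kmt2c* lines. Line 3 of *Myc*; sg*Trp53* shows no clear order, since its 95% counting intervals overlapped. They were 28.8 to 32.7 RPKM for *Ano1* and 29.9 to 33.5 RPKM for *Ano6*. As a share of the summed RPKM of the 8 members, *Ano1* made up 25.4% ± 10.4 among the *Myc*; sg*Trp53* lines and 46.6% ± 12.7 in the *Myc*; sg*Kmt2c* lines (SD, n = 3 each). The genotypes nearly met, with a highest *Myc*; sg*Trp53* share of 37.0% and a lowest *Myc*; sg*Kmt2c* share of 37.8%. *Ano6* made up 42.5% ± 5.20 and 28.9% ± 8.78 (SD, n = 3 each). *Ano3* contributed at most 0.0261% in a *Myc*; sg*Trp53* line and 1.37% to 1.76% in the *Myc*; sg*Kmt2c* lines. The summed level was 64.5 ± 16.6 and 133 ± 36.2 RPKM, and without *Ano1* it was 47.0 ± 5.06 and 70.3 ± 23.8 RPKM (SD, n = 3 each). These ratios and shares use the same values as the fold changes and were not tested separately.

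**Figure D4:**
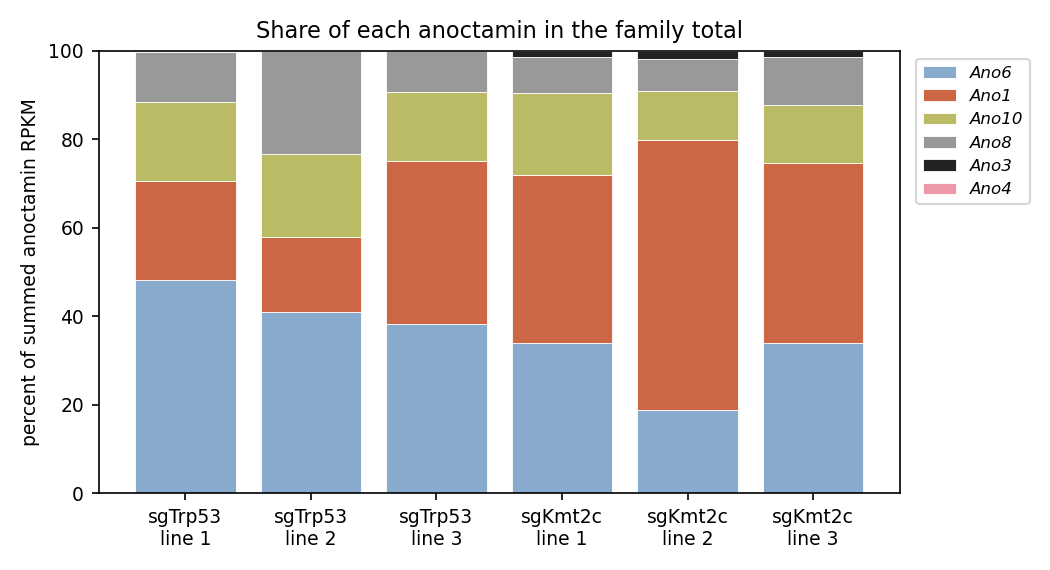
Percent of the summed anoctamin RPKM contributed by each member in each of the 6 lines. *Ano6* takes the widest band in the sgTrp53 lines and *Ano1* in the sgKmt2c lines. In sgTrp53 line 3 the bands of *Ano6* and *Ano1* are nearly equal, at 38.2% and 37.0%. *Ano3* shows as a thin band of 1.37% to 1.76% in the sgKmt2c lines.

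The genes most like each member were ranked by Pearson's r of log2(RPKM + 1) over the 6 lines among all genes tested. These values describe 6 libraries that share genotype and depth, so that r takes in the split by genotype as well as the spread within it. Nearest to *Ano3* were *Slc25a10*, the mitochondrial dicarboxylate carrier (r = 0.988), *Acox3*, a peroxisomal oxidase (0.987), and *Msx1*, a homeobox transcription factor (0.986). *Rufy1* and the calcium-dependent phospholipid-binding annexin *Anxa8* followed at 0.985 each. *Msx1* stood at 0, 0 and 0.450 RPKM among the *Myc*; sg*Trp53* lines and 16.9, 12.3 and 4.11 RPKM among the *Myc*; sg*Kmt2c* lines. Since these genes were picked for their likeness to *Ano3*, a split by genotype follows from the choice and is no separate result.

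Nearest to *Ano1* were *Bloc1s1* (r = 0.980), *Fam174a* (0.977) and *Slc12a7*, a potassium-chloride cotransporter (0.973), over the same 6 lines. *Slc12a7* stood at 7.61, 7.66 and 13.0 RPKM among the *Myc*; sg*Trp53* lines and at 29.5, 41.8 and 18.6 RPKM among the *Myc*; sg*Kmt2c* lines, with line 2 of *Myc*; sg*Kmt2c* highest as in *Ano1*. For *Ano6* the nearest genes were *Gpr137b*, *Rnf128* and *Tmem63b* (r = 0.996 each). *Tmem63b* encodes an osmosensitive channel whose fold is related to that of the anoctamins. For *Ano10* they were *Rin3* (0.996), *R3hdm4* (0.995) and *Serpinb6a* (0.994), and for *Ano8* they were *Rnf41* (0.980), *Srebf1*, a transcription factor of lipid synthesis (0.975), and *Gm13217* (0.963). Among the members themselves, r was 0.889 between *Ano1* and *Ano3*, 0.894 between *Ano6* and *Ano10*, and 0.202 between *Ano6* and *Ano8*.

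Related families were read from the same fit. Of 36 chloride channel genes and their subunits, 16 were tested, and 0 passed the adjusted threshold. Their median log2 fold change was -0.01, and 1 had an unadjusted p under 0.05 in limma, against 8.58% of all genes. This was *Ttyh3*, a tweety-family protein, at 24.2, 40.8 and 32.4 RPKM among the *Myc*; sg*Trp53* lines and 13.9, 13.3 and 19.5 RPKM among the *Myc*; sg*Kmt2c* lines (log2 fold change -1.0, adjusted p = 0.405 from limma), opposite in sign to *Ano1*. *Cftr*, the cyclic AMP-regulated chloride channel of the bile duct, was named after its values were seen. It stood at 4.16, 0.0294 and 2.41 RPKM among the *Myc*; sg*Trp53* lines and at 0, 0 and 0.549 RPKM among the *Myc*; sg*Kmt2c* lines and was under the filter.

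Of 29 genes of other lipid scramblases and flippases, 16 were tested and 0 passed the adjusted threshold, with a median log2 fold change of -0.09. An unadjusted p under 0.05 was reached by 2 of the 16 in limma, against 8.58% of all genes. Both were lower in the *Myc*; sg*Kmt2c* lines. *Atp9a*, a P4-type ATPase, had means of 2.76 ± 0.925 and 0.792 ± 0.691 RPKM (SD, n = 3 each) without overlap (log2 fold change -1.13, adjusted p = 0.554 from limma). Of all genes tested, 10.4% were lower without overlap. The other was *Plscr2*, a phospholipid scramblase of another family, at 39.3 ± 21.0 and 10.2 ± 7.51 RPKM (SD, n = 3 each) with overlap, named after its values were seen.

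Of the 11 TMC and TMEM63 genes, whose proteins are structural relatives of the anoctamins, 3 were tested and 0 passed the adjusted threshold. All 3 log2 fold changes were positive, with a median of 0.61, while 42.0% of all genes tested were positive. With 3 genes this is no test of the list. An unadjusted p under 0.05 was reached by 1 of the 3 in limma, against 8.58% of all genes. *Tmem63a*, the only one with an unadjusted p under 0.05 in limma, stood at 54.1, 57.0 and 127 RPKM among the *Myc*; sg*Trp53* lines and at 271, 179 and 152 RPKM among the *Myc*; sg*Kmt2c* lines. Its lines did not overlap (log2 fold change 1.40, adjusted p = 0.422 from limma), as was so for 5.72% of all genes tested in this direction.

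Calcium release and entry, which supply the signal that opens *Ano1*, were covered by 22 genes, of which 17 were tested with a median of 0.06 and 0 passed. An unadjusted p under 0.05 was reached by 1 higher and 1 lower gene in limma, against 8.58% of all genes. *Plcg1*, a phospholipase that makes the second messenger IP3, was the lower one, at 39.0 ± 3.89 and 23.6 ± 4.32 RPKM (SD, n = 3 each; log2 fold change -0.71, adjusted p = 0.439 from limma). The higher one, named after its values were seen, was *Itpr3*, an IP3 receptor, at 23.2 ± 11.1 and 55.0 ± 22.5 RPKM (SD, n = 3 each) with overlap.

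**Figure D5:**
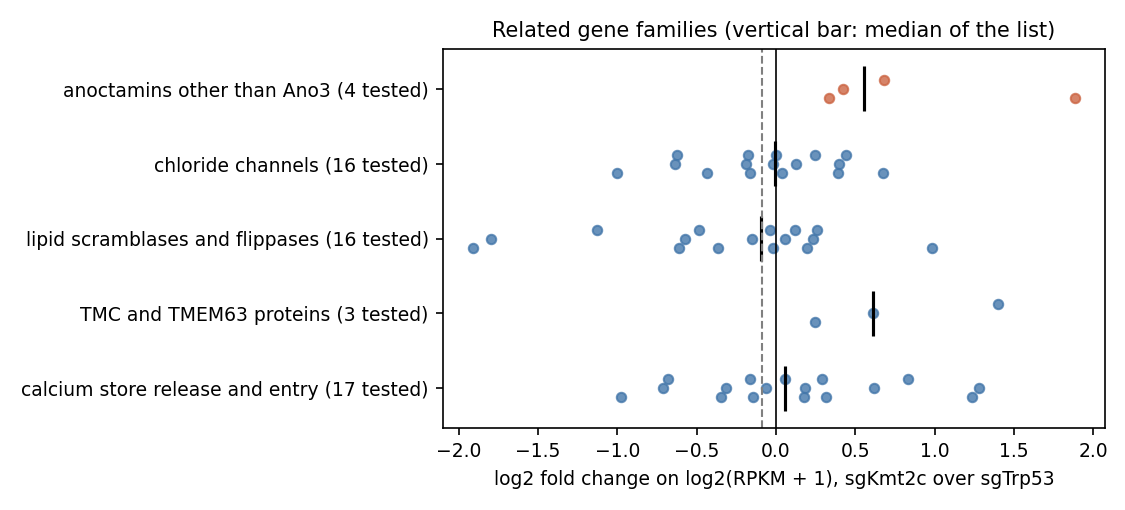
Log2 fold change (sgKmt2c over sgTrp53, on log2(RPKM + 1)) of every tested gene in 4 related lists and of the 4 anoctamins other than *Ano3*, with a bar for each median. All 4 anoctamins lie above 0, as do all 3 tested TMC and TMEM63 genes, with a median of 0.61. The chloride channels, the other scramblases and the calcium genes lie on both sides of 0 around medians of -0.01, -0.09 and 0.06. The dashed line is the median of all genes tested.

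Markers of other cell types were read from the same libraries, and none was tested against the level of a member. Over all genes tested, the lines did not overlap and were higher in *Myc*; sg*Kmt2c* for 5.72% and lower for 10.4%. Of the 8 hepatocyte markers, 0 of 4 tested were separated by genotype. They summed to 16.9 to 67.3 RPKM among the *Myc*; sg*Trp53* lines and 2.28 to 5613 RPKM among the *Myc*; sg*Kmt2c* lines. The highest sum was in line 1 of *Myc*; sg*Kmt2c*, where *Apob* gave 4385 RPKM and *Hnf4a* 1186 RPKM, while *Alb* stood at 4.36 RPKM. That line was also the highest for *Ano6*, *Ano10* and *Ano8*. Without that line *Ano1* had a log2 fold change of 1.88, as with it. Leaving out 1 line is no test of the part of hepatocyte markers. *Hnf4a* still stood at 0.629 and 169.9 RPKM in lines 2 and 3 of *Myc*; sg*Kmt2c*. The 6 biliary markers summed to 111 to 1118 RPKM and 116 to 3522 RPKM, with 0 of 6 separated by genotype. Their highest sum was also in line 1 of *Myc*; sg*Kmt2c*, with *Krt19* at 1866 RPKM and *Krt7* at 990 RPKM. The 8 fibroblast markers, with 0 of 4 tested separated, ranged from 15.0 to 986 RPKM and from 0.282 to 149 RPKM in sum. Of 7 smooth or striated muscle markers, tissues in which *Ano1* and *Ano5* are known, 6 had values, 3 were tested and 2 of these were lower without overlap. They summed to 22.9 to 243 RPKM among the *Myc*; sg*Trp53* lines and to 0.583 to 18.1 RPKM among the *Myc*; sg*Kmt2c* lines.

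The 6 neural markers, of the tissue from which *Ano3* is known, summed to 11.7 to 59.3 RPKM among the *Myc*; sg*Trp53* lines and 0.296 to 19.98 RPKM among the *Myc*; sg*Kmt2c* lines. Of these, 1 was tested and 0 passed. That gene, *Tubb3*, stood at 11.6, 25.2 and 58.6 RPKM against 0.114, 5.52 and 19.0 RPKM. It carried most of the sum except in line 1 of *Myc*; sg*Kmt2c*, where the sum was 0.296 RPKM. *Stmn2* reached 10.7 RPKM in line 2 of *Myc*; sg*Trp53*. The neuronal marker *Rbfox3* was at 0 in all 6 lines and *Snap25* at 0.10 RPKM in 1 line and 0 in the others. The 6 immune markers summed to 4.65 to 17.8 RPKM and 2.79 to 6.28 RPKM, with *Cd3e* at 0 throughout. Of the 2 tested, 1 was lower without overlap, against 10.4% of all genes. The 4 endothelial markers summed to at most 0.284 RPKM in any line. The part of these cell types in the anoctamin levels was not tested.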

How the data were processed

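RNA was measured in 6 libraries, 3 per genotype, grouped by the labels. Per the labels and the methods, the authors trimmed adaptors with Trimmomatic, aligned to GRCm38 with STAR, counted genes with HTSeq and deposited RPKM values. The table has 21065 rows, 209 without values, and 6 columns of other samples that were not used. The authors' table of fold changes and p-values from DESeq2 1.8.2 was not used. Multiplied by the deposited transcript length, RPKM came in whole steps for 100% of values above 0 (within 0.001 read), which gave the reads. Replicates differed beyond sampling noise (chi-square per gene 28.5 or more).

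The fit was limma 3.58.1 in R 4.3.3 (lmFit, eBayes with trend) on log2(RPKM + 1), with genotype as the only term. It took 11617 genes with RPKM of at least 1 in at least 3 libraries, with Benjamini-Hochberg over all. The code was also run on simulated counts with the same dispersion for every gene. That run checks the code and does not show how the fit does on lines as unlike as these. The plan had a count test only for deposited counts. Fold changes on this scale understate those of low genes. Counting intervals are exact Poisson at 95%, exact tests were run with scipy 1.17.1, and plots were drawn with matplotlib 3.10.9. The members, lists, motifs and tests were chosen with earlier results of these data known.

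Named were the members, the targeted genes, overlapping genes, the nearest 2 on each side of *Ano3*, per list up to 3 genes per direction past the threshold or else the 2 smallest p among genes without overlap, the 5 profiles nearest to *Ano3* and 3 to each other member. Exceptions are marked. Alternatives changed the pseudocount, filter, scaling, moderation and test, added a replicate block, counted *Myc*; sg*Kmt2c* lines 2 and 3 as 1 sample and left out each line.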

Additional observations from a re-analysis of the deposited data

How the results depend on the processing

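All 16 alternatives left 0 members other than *Ano3* past an adjusted p of 0.05 and turned no direction. The log2 fold change of *Ano1* ranged from 1.5 to 2.36 (adjusted p 0.292 to 0.822), with an unadjusted p under 0.05 in 16 of 16. *Ano6* ranged from 0.15 to 0.59, *Ano8* from 0.19 to 0.55 and *Ano10* from 0.35 to 0.96. An unadjusted p under 0.05 was reached by *Ano10* only without *Myc*; sg*Kmt2c* line 3, which made 2 members. *Ano3* was at 1.44 to 1.79 with a line left out, 2.30 and 4.29 with pseudocounts of 0.5 and 0.1, and 6.88 with limma voom on the recovered reads, values that depend on what is added before the log to a group near 0.

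The 15 genes past the threshold became 6 with a pseudocount of 0.1, 5 without a filter, 3 with voom, and 0 with *Myc*; sg*Kmt2c* lines 2 and 3 as 1 sample. They became 0 to 8 with a line left out. The split of 6 higher and 9 lower was 7 and 7 after median-of-ratios scaling, 8 and 8 after quantile normalization, 7 and 13 without the trend and 3 and 0 with voom. The causes were not tested. The order of levels was recomputed with both pseudocounts, median-of-ratios scaling and each line left out. It had *Ano6* ahead of *Ano1* without *Myc*; sg*Kmt2c* line 2 and was otherwise the same.

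A replicate block gave 0 genes past the threshold and 0 members. The numbers are not shown to pair the lines, since deviations of same-numbered lines correlated at 0.192, 0.399 and 0.0316 and *Myc*; sg*Trp53* line 3 correlated best with *Myc*; sg*Kmt2c* line 1 (0.152). Depth limits *Ano4*, *Ano5* and *Ano9*, and *Ano3* in the *Myc*; sg*Trp53* lines, where 1 read more or less is a large part of the value.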
